A study of Sus scrofa with 4 samples.

Results

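The cells described here are macrophages of the pig endometrium, the lining of the uterus, at day 9 of pregnancy that carried at least 1 UMI of CD209 or LYVE1. A UMI is an RNA molecule counted once by its own tag. They were chosen by these same counts. Barcodes were kept at 1000 UMIs or more, 500 genes or more and at most 20% mitochondrial UMIs, and a kept cell was called a macrophage at 6 or more summed UMIs of AIF1, C1QA, C1QB, C1QC, CSF1R, CD14, CD68 and CD163 with no CD3E. Macrophages with CD209 or LYVE1 and without PROX1, a gene of lymphatic vessel cells, numbered 155 of 609 macrophages (25.5%, exact binomial 95% interval 22.0 to 29.1%) and of 7984 kept cells of that library. They are called CD209/LYVE1 macrophages below, and the 450 macrophages with neither transcript are called double-negative macrophages. Another 4 macrophages with CD209 or LYVE1 held PROX1 and belong to neither group.

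The study sequenced single cells of pig embryos and endometrium at days 9 and 12 of pregnancy, 1 library for each of the 4 groups. No strain, age, parity, treatment or number of animals, and no pooling, is given in the sources used here. Endometrium was dissociated with collagenases, dispase and DNase and freed of red cells before loading on a 3' droplet system, per the labels' protocols. With 1 library per group there is no replicate check and no test: intervals are given at 95% and reflect the number of UMIs or cells counted, with nothing for the spread between animals or preparations.

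CD209 (DC-SIGN) is a lectin that binds sugars on microbes and on other cells, and LYVE1 is a receptor for hyaluronan that is also found on lymphatic vessels. In many tissues, macrophages with LYVE1, CD209, MRC1 and FOLR2 are residents that lie along vessels and in connective tissue, take up proteins and dead cells and break them down in lysosomes. The other frequent kind of tissue macrophage carries more MHC class II, the molecules that show peptides to helper T cells. In the Sscrofa11.1 annotation of RefSeq, CD209 lies on chromosome 2 from 71394414 to 71397711 and LYVE1 on the same chromosome from 48937357 to 48954206, both protein-coding.

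CD209 and LYVE1 were found together in part of the cells. CD209 alone was found in 53 of the 155 cells, LYVE1 alone in 36, and both in 66. Cells with CD209 alone held a median of 2 CD209 UMIs and at most 84, whereas cells with both held a median of 8.5. LYVE1 was sparser, with a median of 1 UMI in cells with LYVE1 alone and 2 in cells with both, and at most 8 in any cell. Among all macrophages, LYVE1 was detected in 55.8% (46.5 to 64.9%) of the 120 cells with CD209 and in 7.98% (5.73 to 10.7%) of the 489 without it. After each macrophage was thinned to 1500 UMIs the shares were 42.4% and 4.11%, so LYVE1 was more frequent among cells with CD209 at equal depth too. Both transcripts are part of the rule, so these shares are a description.

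**Figure D1:**
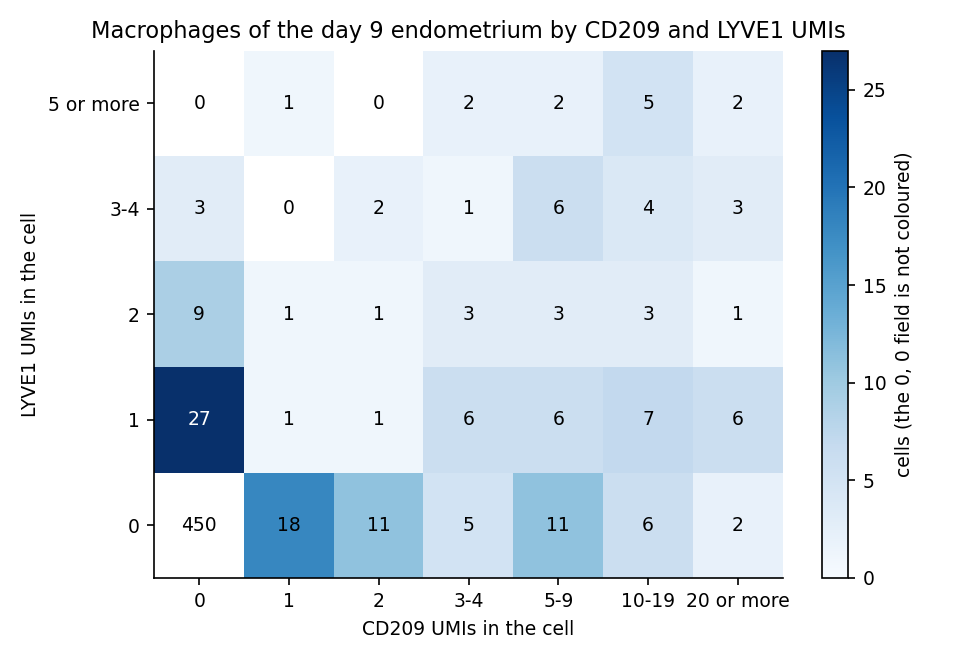
Number of macrophages of the day 9 endometrium by CD209 UMIs (x axis) and LYVE1 UMIs (y axis) in the cell, over all 609 macrophages, the 4 with PROX1 included. The 450 cells with neither stand in the lower left field, and cells with 5 or more CD209 UMIs often hold LYVE1 as well.

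Of the CD209/LYVE1 macrophages, 42 stood just inside the threshold with 1 UMI of the pair, 21 had 2 and 92 had 3 or more, 46 of them 10 or more. Free RNA can put a UMI into any droplet. In stromal cells, the fibroblast-like cells of the endometrium, which should lack both transcripts, 148 of 5761 (2.57%, median 2686 UMIs per cell) had a UMI of either, against 26.1% of macrophages (median 2584 UMIs). Macrophages held 83.9% of the 1325 CD209 UMIs and 75.6% of the 295 LYVE1 UMIs of all kept cells. Cells with 1 UMI are therefore the least certain, and the levels below are also given by the number of UMIs of the pair.

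The 8 macrophage genes of the rule were higher in these cells than in the double-negative ones. They summed to a median of 105 UMIs per cell, against 42. C1QA, which encodes a chain of the first complement component, stood at 6462 CPM (counts scaled to the same total in each group) in the summed CD209/LYVE1 macrophages and at 1870 CPM in the double-negative ones. AIF1, a general macrophage marker, stood at 719 and 506 CPM. The share of macrophages with CD209 or LYVE1 was 7.46% of the 67 cells with 6 to 9 UMIs of the 8 genes, 6.98% at 10 to 19, 5.31% at 20 to 39, 16.9% at 40 to 79, 53.3% from 80 to below 160 and 86.8% of the 38 cells at 160 or more. These genes chose the cells, and their levels support nothing further. The 10 further macrophage genes found in the files, which did not choose the cells, include PTPRC, SPI1, TYROBP and MRC1. At the gate of 6 all 10 were higher in the CD209/LYVE1 macrophages, where 37.7% of genes at 5 CPM or more were. They summed to 7042 CPM, against 3732 CPM in double-negative macrophages and 312 CPM in the rest of the library. At a gate of 10 UMIs of the 8 genes, 8 of the 10 were higher, where 46.9% of all genes were. The sums there were 7688 and 6126 CPM. PTPRC, the leukocyte antigen CD45, and SPI1, the myeloid factor PU.1, had ratios of 0.760 (0.572 to 1.0) and 0.840 (0.684 to 1.03) at the gate of 10. In both groups and at both gates the sum was far above the rest of the library. The macrophage label thus holds for the summed groups, not for each cell. At the gate of 6 the lowest cell of each group held 0 UMIs of these 10 genes, and the cells at the edge of that gate are described next.

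**Figure D2:**
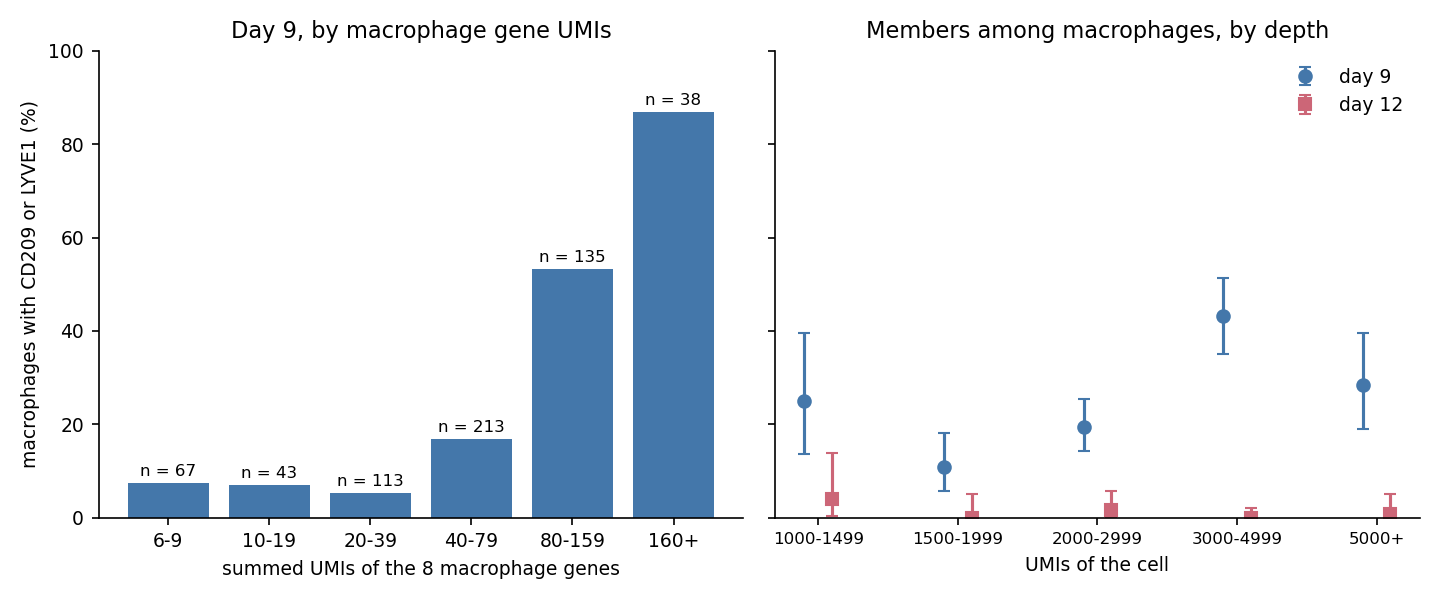
Left, share of day 9 macrophages with CD209 or LYVE1 (y axis, percent) by the summed UMIs of the 8 macrophage genes; n is the number of cells. Right, share of macrophages that qualified as CD209/LYVE1 macrophages by UMIs of the cell at day 9 (circles) and day 12 (squares), with exact binomial 95% intervals. The share climbs from 16.9% to 86.8% over the 3 highest classes on the left, and the day 9 points lie above the day 12 points in each class of depth on the right.

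A group of cells at the lower edge of the macrophage gate touches every comparison below. The 67 macrophages with 6 to 9 UMIs of the 8 genes had a median of 5829 UMIs, more than the median of 3202 in CD209/LYVE1 macrophages and of 2419.5 in double-negative ones, with a median of 59 stromal UMIs and a mean of 19.8 epithelial UMIs per cell. Of these, 62 were double-negative, and they held 43.8% of all UMIs of that group. Just outside the gate, 60 cells with 5 UMIs had a median of 4692 UMIs. Doublets were not removed, and whether these droplets hold 2 cells was not tested. The main comparisons are therefore given at the gate of 6 UMIs and again at a gate of 10 UMIs, which left 150 CD209/LYVE1 and 388 double-negative macrophages with median depths of 3196 and 2276 UMIs.

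At the gate of 6, 146 of 2840 genes at 50 CPM or more in either group were at least 2-fold higher in the CD209/LYVE1 macrophages (5.14% of the genes compared) and 285 at least 2-fold lower (10%). With the gate of 10 the counts were 86 of 2642 (3.26%) and 108 (4.09%). Scaled on the median of the ratios instead of on total UMIs, the gate of 6 gave 215 higher and 235 lower. With no test, these are counts of genes by size of ratio. CD209, LYVE1, PROX1, CD3E and the 8 macrophage genes are left out of all of them.

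Among the genes with a symbol that are reported here and reached 50 CPM in either group, the 15 highest ratios at the gate of 6 were those of CTSL, HSD11B1, FOLR2, C4BPA, DNASE1L3, DYNC2H1, CCL14, CD200R1, LTC4S, PEPD, DNASE2, MAN1A1, LGMN, MRC1 and GPNMB. All 15 were also at least 2-fold higher at the gate of 10, and 12 of the 15 were again among the 15 highest there. The group held lysosomal enzymes (CTSL, LGMN, DNASE2), receptors that take up ligands (FOLR2, MRC1), a secreted chemokine (CCL14), a secreted regulator of complement (C4BPA) and enzymes that act on glucocorticoids (HSD11B1) and leukotrienes (LTC4S).

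CTSL, the lysosomal protease cathepsin L, had the highest ratio of these genes. It stood at 911 CPM in CD209/LYVE1 macrophages and 55.2 CPM in double-negative ones, 16.5-fold higher (13.4 to 20.6), and was detected in 67.7% and 11.8% of the cells. With the gate of 10 it was 11.2 (9.00 to 14.1). Its level was 259 CPM in cells with 1 UMI of the pair, 1005 CPM with 2 to 9 and 1423 CPM with 10 or more. The other kept cells of the library, outside the macrophage gate, held 6.96 CPM.

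FOLR2, a folate receptor used as a marker of resident macrophages, stood at 915 and 93.1 CPM, 9.82-fold higher (8.27 to 11.7), and 8.23-fold (6.78 to 10.1) at the gate of 10. It was found in 81.3% of CD209/LYVE1 macrophages and in 22.0% of double-negative ones, and in 67.8% and 12.3% after thinning. Its level also followed the UMIs of the pair, with 386, 865 and 1478 CPM in the same 3 classes.

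C4BPA, which encodes the alpha chain of C4b-binding protein, an inhibitor of complement, was by far the most abundant of the 15. CD209/LYVE1 macrophages held a median of 59 UMIs of it per cell, at most 223, and 93.5% had at least 1. The summed level was 18699 CPM, against 2099 CPM in double-negative macrophages and 94.2 CPM in the rest of the library. The ratio was 8.91 (8.59 to 9.24), and 5.54 (5.35 to 5.75) at the gate of 10. RefSeq lists 2 pig genes under this symbol on chromosome 9, 1 of them with the synonym APOR, and which of them the counted gene model covers was not determined.

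CCL14, a chemokine made at a steady level in many tissues, stood at 1970.0 and 338 CPM, 5.82-fold higher (5.28 to 6.42), and 3.74-fold (3.39 to 4.13) at the gate of 10. LGMN, the asparaginyl endopeptidase legumain, stood at 1649 and 359 CPM, with ratios of 4.59 (4.16 to 5.07) and 3.07 (2.77 to 3.40). MRC1, the mannose receptor CD206, stood at 379 and 86.9 CPM, with ratios of 4.36 (3.54 to 5.36) and 2.71 (2.20 to 3.34). All 3 were higher in cells with 10 or more UMIs of the pair (2901, 2214 and 473 CPM) than in cells with 1 (829.8, 1066 and 265 CPM).

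Several of the 15 were low in level and were missed in most of the cells. HSD11B1, which regenerates active glucocorticoid, was detected in 29.0% of CD209/LYVE1 macrophages and 5.78% of double-negative ones, with ratios of 10.8 (7.02 to 17.2) and, at the gate of 10, 11.0 (6.48 to 19.6). DNASE1L3, a secreted nuclease that digests DNA from dead cells, was detected in 40% and 9.78%, with a ratio of 6.44 (4.77 to 8.77) that was 4.02 at the gate of 10. CD200R1, an inhibitory receptor, had ratios of 5.32 at the gate of 6 and 3.45 at the gate of 10. GPNMB, a membrane glycoprotein of lysosomes, stood at 133 and 31.7 CPM, with ratios of 4.20 (2.96 to 5.98) and 2.71 (1.90 to 3.88).

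**Figure D3:**
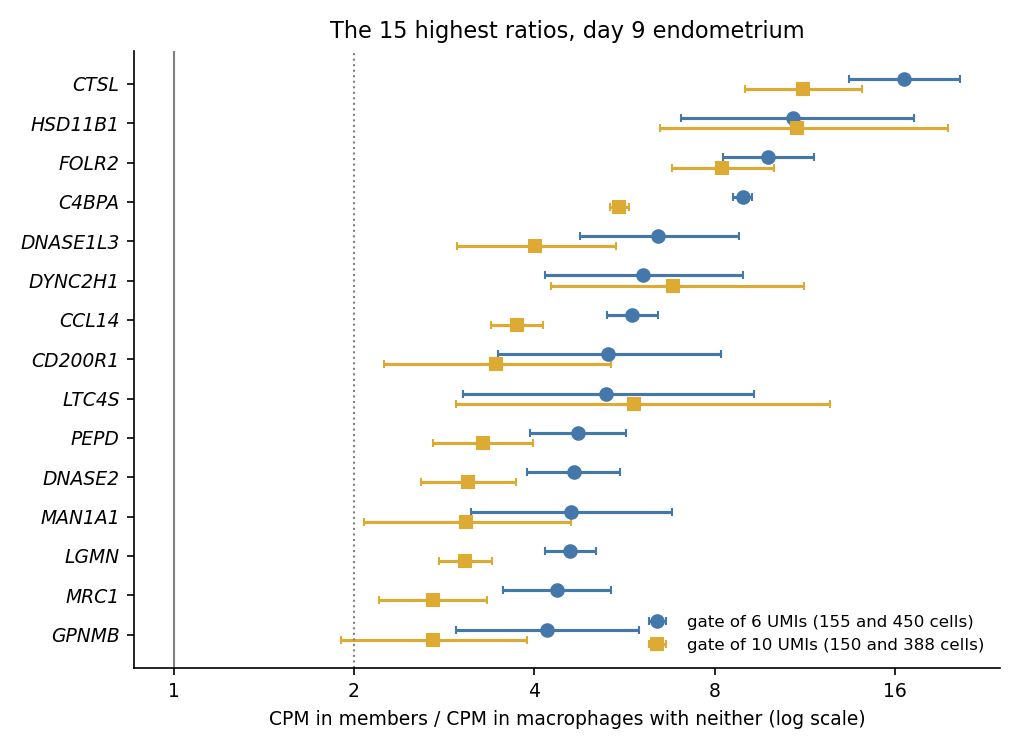
Ratio of CPM in CD209/LYVE1 macrophages to CPM in double-negative macrophages (x axis, log scale) for the 15 highest genes, at the gate of 6 UMIs (circles) and of 10 UMIs (squares), with exact binomial 95% intervals. All 30 points lie right of the dotted line at 2-fold. Most ratios are smaller at the gate of 10, such as 5.54 against 8.91 for C4BPA.

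Within the 155 cells, those with both transcripts had the highest levels of most of these genes, and those with LYVE1 alone the lowest. CTSL stood at 1303 CPM in the 66 cells with both, 793 CPM in the 53 with CD209 alone and 282 CPM in the 36 with LYVE1 alone. C4BPA stood at 23641, 16937 and 11147 CPM in the same order. HSD11B1 stood at 280.0, 89.8 and 8.05 CPM. The interval for cells with LYVE1 alone, 0.204 to 44.9 CPM, spans the level of double-negative macrophages (14.6 CPM), so these 2 cannot be told apart. LGMN and MRC1 differed less, with 1932, 1295 and 1603 CPM for LGMN and 447, 322 and 322 CPM for MRC1. CD200R1 was in another order, at 121, 58.1 and 145 CPM. Cells with LYVE1 alone mostly hold 1 LYVE1 UMI, and whether those include double-negative cells with a stray UMI was not tested.

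**Figure D4:**
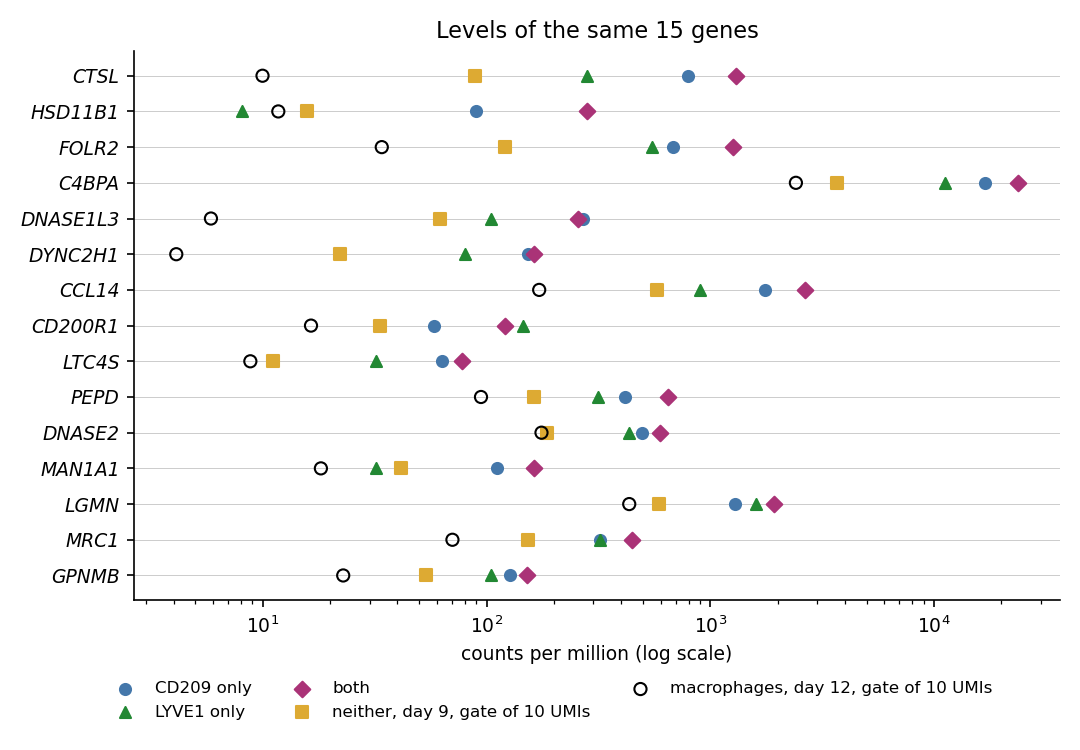
Level in CPM (x axis, log scale) of the same 15 genes in cells with CD209 only, LYVE1 only or both, in double-negative macrophages of day 9 and in day 12 macrophages, the last pair at the gate of 10 UMIs. Cells with both lie farthest right for most genes, and the day 12 points lie left of the double-negative points for these 15 genes.

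Genes of resident macrophages were higher as a list. At the gate of 6, 14 of the 15 measured members, other than the genes of the rule, were higher and 9 at least 2-fold, with a median log2 ratio of 1.63, where 37.7% of the 10399 genes at 5 CPM or more were higher, 6.38% at least 2-fold, against 18.3% at least 2-fold lower, and the median was -0.21. At the gate of 10, 12 of 15 were higher and 7 at least 2-fold, with a median of 0.98, against 46.9% higher, 8.84% at least 2-fold and a median of -0.05 for all genes. STAB1, a scavenger receptor, stood at 329 and 84.8 CPM, with ratios of 3.88 (3.13 to 4.82) and 2.54 (2.04 to 3.17) at the gates of 6 and 10. SLC40A1, the iron exporter ferroportin, had ratios of 3.29 and 2.12. SELENOP, which encodes the selenium carrier selenoprotein P, stood at 5207 and 2210.0 CPM, a ratio of 2.36 that was 1.5 at the gate of 10. IL10 had a ratio of 1.09 (0.847 to 1.40) at the gate of 6 and of 0.695 (0.536 to 0.894) at the gate of 10.

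Lysosomal genes formed the most uniform list. At both gates 20 of 21 measured members were higher, 11 and 9 of them at least 2-fold, with median log2 ratios of 1.22 and 0.92. Of all genes, 37.7% and 46.9% were higher at the gates of 6 and 10, and 6.38% and 8.84% at least 2-fold. CTSC and PSAP, a protease activator and the precursor of the saposins, had ratios of 1.86 and 1.76 that were 1.35 and 1.27 at the gate of 10. CTSS, cathepsin S, was 1.55-fold higher at the gate of 6 and had a ratio of 1.0 (0.922 to 1.09) at the gate of 10. CST3, an inhibitor of cathepsins, was the exception, with a ratio of 0.937 at the gate of 6 and, at the gate of 10, 38202 CPM against 63452 CPM, a ratio of 0.602 (0.593 to 0.612).

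Scavenger and endocytic receptors had 8 of 12 measured members higher and 7 at least 2-fold at the gate of 6, where 37.7% and 6.38% of all genes were. At the gate of 10 the numbers were 7 and 5, where 46.9% and 8.84% of all genes were. The median log2 ratios were 1.42 and 0.85. VSIG4, a complement receptor of resident macrophages, stood at 410.1 and 127 CPM, with ratios of 3.23 and 1.99. TIMD4, which binds dying cells, was rare, at 35.1 and 5.20 CPM, with a ratio of 6.74 (3.01 to 16.1) from 20 UMIs in the CD209/LYVE1 macrophages, and of 4.14 (1.85 to 9.90) at the gate of 10. FOLR2, MRC1 and STAB1 stand in this list and in that of resident macrophages, so the counts are not independent.

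Of the complement genes measured, 8 of 10 were higher at the gate of 6, where 37.7% of all genes were. At the gate of 10, 7 were higher and 4 at least 2-fold, where 46.9% and 8.84% of all genes were. The intervals of 3 of the 10 lay above 1 at that gate and that of 1 below 1. Of all 9865 genes, 542 had intervals above 1 and 619 below 1. CFP, properdin, which stabilises the alternative pathway, had ratios of 3.31 (2.64 to 4.14) and 3.03 (2.35 to 3.91). CFD, factor D, stood at 1996 and 710.3 CPM, with ratios of 2.81 and 2.26. C2, of the classical pathway, had ratios of 3.18 and 2.05. C3 was instead lower at the gate of 10, at 76.7 CPM against 292 CPM (ratio 0.263, 0.184 to 0.366). Together with C4BPA, the higher genes include both components and an inhibitor of the cascade.

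Genes of MHC class II presentation were lower once the cells at the edge of the gate were left out. The list had at the gate of 6 a median log2 ratio of -0.11, near that of all genes. With the gate of 10, 9 of 10 measured members were lower, where 53.1% of all genes were, and the median was -0.61. SLA-DQB1, a class II chain, stood at 2785 and 4525 CPM at the gate of 6, a ratio of 0.616 (0.583 to 0.649), and at 3032 and 7403 CPM at the gate of 10, a ratio of 0.410 (0.388 to 0.432). CD74, the class II chaperone, had ratios of 0.789 and 0.588, and CD86, a costimulatory ligand, of 0.591 and 0.422. SLA-DMB turned from 1.32 to 0.870. IFI30, a thiol reductase of lysosomes that is counted in this list, was higher at both, with 2.71 and 1.96. SLA-DQB1 was lower in cells with more UMIs of the pair, with 3342 CPM in cells with 1, 2744 CPM with 2 to 9 and 2302 CPM with 10 or more. CD86 stood at 86.4, 46.5 and 44.0 CPM in the same classes, from 15, 10 and 8 UMIs and with overlapping intervals. SLA-DMB stood at 634, 767 and 791 CPM. Its intervals also overlapped, with 521 to 764 CPM in cells with 1 and 667 to 931 CPM with 10 or more. CD74 changed little, at 10159, 10743 and 9862 CPM.

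**Figure D5:**
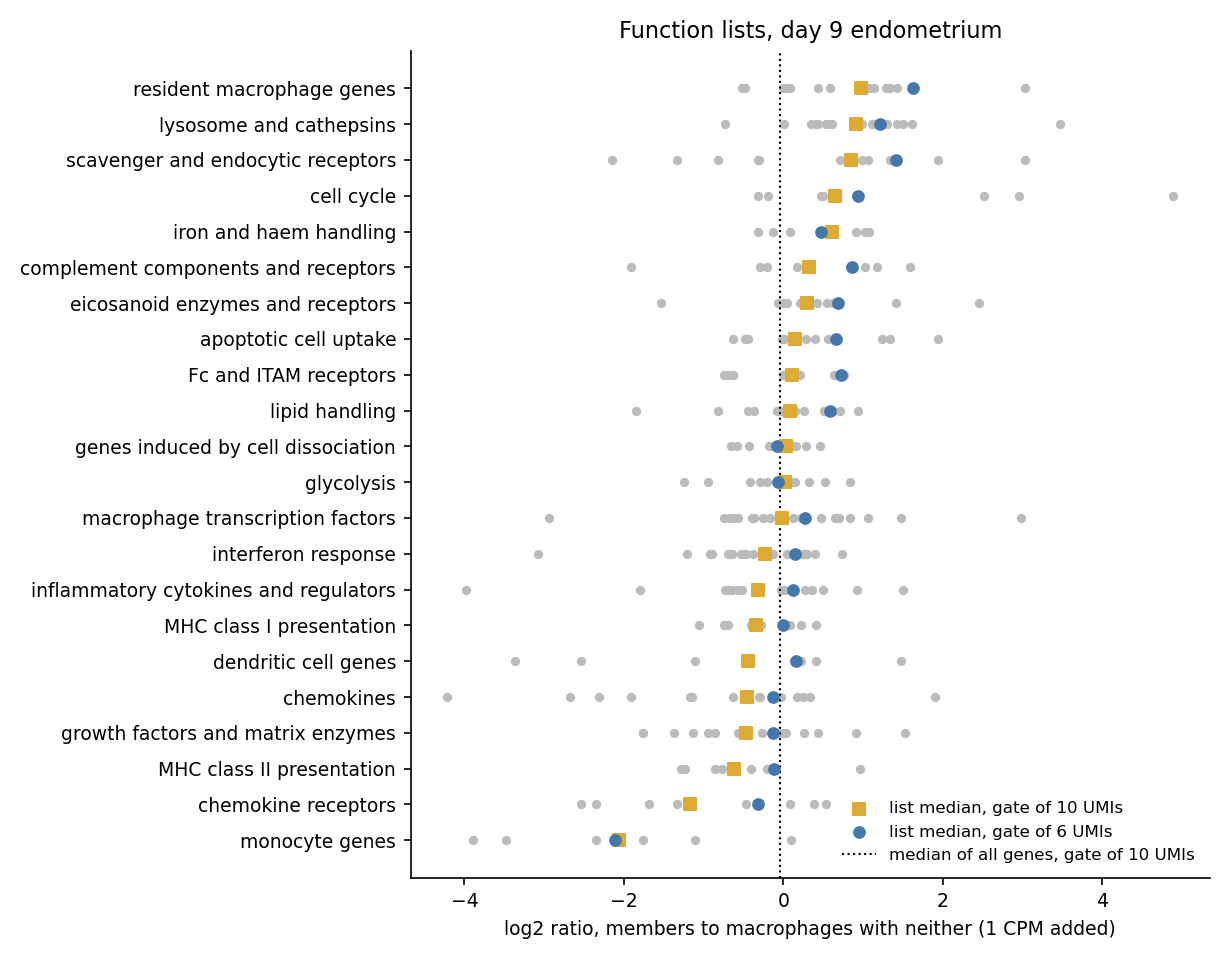
Log2 ratio of CD209/LYVE1 to double-negative macrophages, with 1 CPM added, for the measured genes of each of 22 lists at the gate of 10 UMIs (grey points) with the list medians at the gates of 10 (squares) and 6 (circles). The dotted line is the median of all genes at the gate of 10. Resident macrophage, lysosomal and scavenger genes lie farthest right, with medians of 0.98, 0.92 and 0.85, and monocyte genes farthest left at -2.06.

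By the same rule, the 15 lowest ratios at the gate of 6 were those of CADPS2, RNF128, PSAT1, DSP, DNM3, PLPP4, MT3, DGKG, FAM162B, SOX17, PLPP2, AQP3, CREB3L4, ADAMTS18 and SIPA1L3. The 62 double-negative cells with 6 to 9 UMIs of the macrophage genes held 79.1% of the UMIs of these genes in the double-negative group, and 4.53% of the UMIs of the 15 highest genes. Of the 15, 14 were still lower at the gate of 10, 8 at least 2-fold, and ADAMTS18, with few UMIs, was higher (log2 ratio 0.88). Of these genes 1, RNF128, was again among the 15 lowest there.

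RNF128, an E3 ubiquitin ligase also known as GRAIL, stood at 19.3 CPM in CD209/LYVE1 macrophages and 171 CPM in double-negative ones at the gate of 6 (ratio 0.113, 0.0557 to 0.204) and at 17.2 and 275 CPM at the gate of 10 (ratio 0.0627, 0.0284 to 0.121). It was detected in 5.81% and 34.7% of the cells at the gate of 6. Its level was 46.1 CPM in cells with 1 UMI of the pair, 9.30 CPM with 2 to 9 and 5.49 CPM with 10 or more.

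At the gate of 10, the 15 lowest ratios were those of RNF128, NAPSA, PLVAP, C15orf48, RP2, RASSF5, CXCL8, RNF121, GPR183, C3, CYTIP, APOE, PKIB, INSIG1 and HBEGF, a list drawn up after the values at the gate of 6 were seen. CXCL8, which attracts neutrophils, stood at 247 and 1235 CPM there (ratio 0.20, 0.166 to 0.240), and was found in 12.0% and 35.6% of the cells. APOE, a lipid carrier, stood at 719 and 2595 CPM (ratio 0.277), with 603 CPM in the rest of the library, and the growth factor gene HBEGF at 263 and 894 CPM (ratio 0.294). These 3 were also lower at the gate of 6, with ratios of 0.315, 0.440 and 0.444. Of these 3, CXCL8 fell most steeply with the UMIs of the pair, with 542 CPM in cells with 1, 130.2 CPM with 2 to 9 and 38.5 CPM with 10 or more. These levels rest on 94, 28 and 7 UMIs, found in 23.8%, 7.46% and 6.52% of the cells. The highest CD209/LYVE1 cell held 37 of the 129 CXCL8 UMIs.

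Chemokines were mixed. CCL14 was the only measured chemokine at least 2-fold higher at the gate of 10, where 6 of 15 were at least 2-fold lower (11.9% of all genes at 5 CPM or more) and the median log2 ratio was -0.45. CCL2, which draws monocytes, had ratios of 1.95 and 1.26 at the gates of 6 and 10, and CXCL2 of 1.71 and 1.13. CCL4, at 5477 and 4227 CPM, turned from 1.30 to 0.811. TNF likewise had ratios of 1.03 (0.858 to 1.23) and 0.642 (0.535 to 0.766). Of the chemokine receptors, 5 of 9 were at least 2-fold lower at the gate of 10, among them CX3CR1, with 36.4 and 93.5 CPM, and CCR7, at 7.67 and 49.1 CPM. Monocyte genes had median log2 ratios of -2.12 and -2.06, but over 7 and 6 genes of low level.

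Of 14 measured genes that cell dissociation induces, 5 were higher and 9 lower at the gate of 6, where 37.7% of all genes were higher. At the gate of 10, 8 were higher and 6 lower, where 46.9% of all genes were higher. None was 2-fold higher or lower at these gates, and the median log2 ratios were -0.08 and 0.04 at the gates of 6 and 10. Interferon response genes had medians of 0.15 and -0.23. Cell cycle genes had medians of 0.94 and 0.65, but 66.7% of the UMIs of UBE2C in CD209/LYVE1 macrophages came from 1 cell.

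Markers of most other cell types summed to no more in the CD209/LYVE1 macrophages than in the double-negative ones at each gate. Ciliated epithelial and mast cell markers were slightly higher at the gate of 10 only. Their sums there were 222 and 214 CPM for ciliated and 217 and 201 CPM for mast cell markers. Further exceptions are given below. Stromal markers summed to 6578 and 7875 CPM at the gate of 6 and to 5474 and 9242 CPM at the gate of 10, against 34286 CPM in the rest of the library, with 3 and 1 of 11 markers higher. Epithelial markers summed to 365 and 1013 CPM at the gate of 6 and to 266 and 317 CPM at the gate of 10, against 786 CPM in the rest. Lymphatic markers summed to 17.5 CPM, with at most 2 UMIs in any cell, and the neutrophil and erythroid markers found in the files were at 0.

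Markers of NK cells were higher at both gates, with sums of 307 and 177 CPM at the gate of 6 and of 324 and 247 CPM at the gate of 10, against 376 CPM in the rest. Of the 9 markers, 4 were higher and 4 lower at each gate, and PRF1, KLRD1 and XCL1 were at 0. Blood endothelial markers, at 342 and 277 CPM, and T cell markers, at 59.6 and 48.4 CPM, were higher at the gate of 6 but not at the gate of 10, where the sums were 370 and 406 CPM and 65.2 and 74.1 CPM. The B or plasma cell sum of 5368 CPM at the gate of 6 came from 1 cell with CD209, which held 2647 of the 2897 UMIs of JCHAIN, the joining chain of secreted antibodies, and at the gate of 10 the sums were 715 and 803 CPM. JCHAIN and other genes with over 20% of their UMIs in 1 cell were not ranked. The part of these RNAs in the ratios was not tested beyond the gates given.

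At day 12 the same rule found 5 such cells among 528 macrophages (0.947%, 0.308 to 2.20%). Thinned to 1500 UMIs per cell, the shares were 117 of 561 (20.9%, 17.6 to 24.5%) at day 9 and 1 of 479 (0.209%, 0.00529 to 1.16%) at day 12, and the same cells before thinning gave 25.5% and 0.626%. All kept cells of the endometrium together held 1325 CD209 UMIs at day 9 and 12 at day 12, and 295 and 55 LYVE1 UMIs. In the day 12 embryo 179 cells passed the macrophage gate, and none of them was such a cell. By the limit of 3 counts this allows a share of up to 1.68%. None was found among the 4 cells that passed in the day 9 embryo. Kept cells of these embryo libraries had medians of 9343.5 and 9501 UMIs at days 12 and 9. Whether the embryo cells that passed the gate are macrophages was not tested. Each day is 1 library, so day, animal and preparation cannot be told apart.

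The 15 genes with the highest ratios in the CD209/LYVE1 macrophages were also low in day 12 macrophages. Of the 15 highest, 13 were at least 2-fold lower in the macrophages of day 12 than in those of day 9 at the gate of 6, where 13% of 2902 genes were at least 2-fold lower and 9.06% higher. The number was 14 for the 464 and 542 macrophages at the gate of 10. Since the day 9 cells include the CD209/LYVE1 macrophages, the day 12 cells were also set against the day 9 double-negative cells alone. Double-negative means 0 UMIs of the pair, and thinning to 1500 UMIs took the CD209/LYVE1 cells from 143 to 117. The double-negative group may therefore still hold cells whose transcripts were missed, and their number was not tested. Against the double-negative cells at the gate of 10, all 15 were lower, where 57.5% of 9735 genes at 5 CPM or more were. The intervals of 12 lay below 1, and no share over all genes was counted for that number. At least 2-fold lower were 9, where 7.61% of 2733 genes were at least 2-fold lower and 6.73% higher. CTSL stood at 9.98 CPM at day 12 and 88.9 CPM in day 9 double-negative macrophages (ratio 0.112, 0.0628 to 0.189), FOLR2 at 34 and 120.4 CPM (0.283, 0.204 to 0.388), and DNASE1L3 at 5.87 and 62.1 CPM (0.0946, 0.0434 to 0.185). C4BPA stood at 2413 and 3685 CPM (0.655, 0.627 to 0.684) and DNASE2 at 176 and 186 CPM (0.946, 0.788 to 1.14). At the gate of 6, 5 of the 15 were at least 2-fold lower at day 12 than in the double-negative cells. In that comparison 6 had intervals below 1 and 1 had an interval above 1. C4BPA stood at 2082 and 2099 CPM there, LGMN at 392 and 359 CPM and DNASE2 at 167 and 113 CPM. No share over all genes was counted for it.

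By list, resident and scavenger genes were mostly lower at day 12 than in the day 9 double-negative macrophages, and class II genes mostly higher. Of the 15 measured resident genes 13 were lower, 11 at least 2-fold, and of the 12 scavenger genes 11 and 6, where 57.5% of 9735 genes were lower and 15% at least 2-fold. SLC40A1 stood at 40.5 CPM against 269.5 CPM (0.15), VSIG4 at 66.9 against 225 CPM (0.297), STAB1 at 64.6 against 142 CPM (0.456) and MRC1 at 70.4 against 153 CPM (0.461). TIMD4 was the exception among the scavenger genes, at 103.9 CPM at day 12 against 9.26 CPM (11.2, 5.96 to 23.8).

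The other lists differed in direction. At least 2-fold higher at day 12 were 14 of 15 cell cycle genes and 6 of 8 genes of MHC class I presentation, where 8.30% of all genes were. At least 2-fold lower were 6 of 14 genes of lipid handling and 6 of 15 chemokines, where 15% of all genes were. Lysosomal genes were divided, with 12 of 21 lower and 9 higher, among the latter PSAP (1.33, 1.25 to 1.41), and CTSC was near level (0.935, 0.836 to 1.05). Of the 10 complement genes 6 were higher at day 12, C2 among them (2.17, 1.74 to 2.72), where 42.5% of all genes were higher. Of the 10 class II genes named above as mostly higher, 9 were. CD74 stood at 30002 against 18782 CPM (1.60, 1.57 to 1.62), SLA-DQB1 at 8685 against 7403 CPM (1.17, 1.14 to 1.21) and IFI30 at 620 against 402 CPM (1.54, 1.38 to 1.73). RNF128 differed by less than counting error, at 272 and 275 CPM (0.988, 0.852 to 1.15). IL10, at 161 and 232 CPM in the CD209/LYVE1 and double-negative macrophages of day 9 at the gate of 10, was at 20.5 CPM at day 12.

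All 155 cell barcodes also stand in the deposited list of the day 9 embryo, which holds 657829 barcodes and 99.99% of the kept barcodes of the day 9 endometrium. There they had a median of 10 UMIs and, summed, 1 CD209 UMI and no LYVE1. In another library, 6 of the 155 barcodes passed as kept cells. The share without any barcodes of that kind was 25.4%, and 138 and 283 genes were at least 2-fold higher and lower.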

How the data were processed

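The deposited values are raw UMI counts per gene and barcode. Per the submitters' processing notes, the authors used Cell Ranger 6.1.2 and the Sscrofa11.1 build, while the matrix header of the day 9 embryo names version 4. Symbols follow the deposited feature files and an NCBI table. The cells, gene lists and settings were chosen with earlier results of these data known. Counts of a group were summed and scaled to CPM. Ratios of CPM have exact binomial intervals, levels exact Poisson and shares Clopper-Pearson intervals, all at 95%, and a share of 0 has the limit of 3 counts (numpy 2.4.6, scipy 1.17.1, pandas 2.3.3). Ratios and thinning were checked on simulated counts. No test was run and no count model was fitted, since each group is 1 library. Named genes are the 15 highest and 15 lowest ratios at 50 CPM or more in either group, with a symbol, without mitochondrial, ribosomal, haemoglobin and immunoglobulin genes, and with at most 20% of UMIs in 1 cell. For 1 gene that this rule names, results are not reported here; it is left out of the ranking, the named genes and its list, and the gene next in rank was taken. Of each list, up to 4 genes highest in level and 2 largest in ratio at 20 CPM or more were added. List medians use genes at 5 CPM or more and log2 of CPM with 1 added. Thinning drew 1500 UMIs per cell with seed 1 and left out shallower cells, 48 at day 9 and 49 at day 12. Cells are not replicates. Alternatives were other gates, thresholds, depths, minima, weights and scalings. No doublet caller was run. Embryo libraries were used only for the same rule and for shared barcodes.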

Additional observations from a re-analysis of the deposited data

How the results depend on the processing

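The share of macrophages with CD209 or LYVE1, 25.5%, was 29.1% at 2000 UMIs or more per cell, 29.5% at a gate of 20 UMIs, 16.4% at a gate of 3, 18.6% with 2 UMIs of the pair, 8.70% for CD209 alone, 5.91% for LYVE1 alone, 20.9% after thinning and 19.5% at no more than 2 stromal UMIs, which left 8 and 32 cells. The 146 genes at least 2-fold higher and 285 lower became 86 and 108 at a gate of 10, 88 and 108 at a gate of 20, 640 and 973 at no more than 2 stromal UMIs, 91 and 124 at a minimum of 100 CPM, and 278 and 705 at 20 CPM. Those higher numbered 305 for LYVE1 alone, and those lower 129 at a gate of 3, 133 with cells weighing the same and 149 at no more than 20 stromal UMIs. The gate of 20 and the limit of 20 stromal UMIs were added after the data were seen. The median of ratios lay at -0.15 on the log2 scale, and scaling on it raises each log2 ratio by that size. Ratios turned at the gate of 10 for ADAMTS18 (0.88 on the log2 scale) and at the gate of 20 for ADAMTS18 (1.08), DGKG (0.26) and SOX17 (0.0065, and 0.31 at no more than 20 stromal UMIs), after thinning for ABCG1 (0.32), DNM3 (0.32) and DSP (0.17), for LYVE1 alone in HSD11B1 (-0.78), and at no more than 2 stromal UMIs for C2 (-0.70), FGR (-4.23), PTGS1 (-5.19), TREM2 (-0.12), MT3 (0.45), TIMP3 (1.41) and the median of apoptotic cell uptake genes (-0.53). The cause was not tested beyond the fewer cells of each setting. Of 239 values of the 15 highest genes over 16 alternatives, 238 kept their direction, and of 229 values of the 15 lowest, 221. With 1 library, leaving out a replicate was not possible. No paired analysis was possible because each group has 1 library.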

Other observations

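Several groups of genes outside the comparisons above were higher by less. Of the iron genes measured at the gate of 10, 7 of 9 were higher, where 46.9% of all genes were. FTL, the light chain of the iron store ferritin, stood at 15213 CPM in CD209/LYVE1 macrophages and 8079 CPM in double-negative ones (1.88-fold, 1.83 to 1.94), and BLVRB, an enzyme of haem breakdown, at 242 and 118 CPM (2.05-fold). Fc and ITAM receptor genes had median log2 ratios of 0.72 at the gate of 6 and 0.11 at the gate of 10. FCGRT, the receptor that recycles antibody, had ratios of 2.12 and 1.67, and FCER1G, a signalling chain of Fc receptors, of 2.33 and 1.55. PPARG, a regulator of lipid genes in macrophages, had a ratio of 16.8 that rests on 15 UMIs in the CD209/LYVE1 macrophages (4.76 to 90.8), and of 10.3 (2.93 to 55.8) at the gate of 10. It lies below the 50 CPM that the ranking asked for.

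A gene model without a symbol in the sources used here, ENSSSCG00000028674, had a higher ratio than any of the 15 ranked genes. It stood at 368 CPM in CD209/LYVE1 macrophages and 9.89 CPM in double-negative ones at the gate of 6, 37.2-fold higher (23.3 to 63.1), and was found in 51.0% and 3.11% of the cells. At the gate of 10 it stood at 142 CPM in all macrophages of day 9 and 4.11 CPM in those of day 12. Its level was 333 CPM in cells with CD209 alone, 234 CPM with LYVE1 alone and 459 CPM with both.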
